A study of Mus musculus with 6 samples.

Results

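Laminins and integrins are the matrix proteins and the receptors by which cells hold on to a basement membrane, and the genes that encode their chains were followed here in fetal mouse diaphragm with and without Schwann cells. The members are all protein-coding genes named Lama, Lamb or Lamc with a number, and all genes named Itga or Itgb that encode an integrin chain. Genes whose products only bind an integrin, or resemble 1 in part, were left out. This gave 38 genes, 11 for laminin chains and 27 for integrin chains (18 alpha and 9 beta, Itgb2l, a beta2-like chain, among them), of 23073 genes with a value. All 38 were in the deposited data.

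The study asked how Schwann cells, the glia of peripheral nerve, preserve nerve-muscle contacts. Poly(A) RNA of the diaphragm was sequenced at E14.75 in 6 libraries, which the labels call biological replicates. The erbB3 wild-type libraries (numbers 5 and 6) and the erbB3 mutant libraries (numbers 1 and 2) hold total RNA of whole muscle. ErbB3 is the receptor through which neuregulin reaches Schwann cells, and it is inactive in every cell of the mutant embryo, not only in glia. The Wnt1-Ribotag libraries (numbers 1 and 2) come from muscle that is erbB3 wild-type and carries Wnt1-Cre and the Ribotag allele, which puts a hemagglutinin tag on ribosomes where Cre has acted, and they hold RNA bound to ribosomes that an antibody to that tag pulled down. Wnt1-Cre acts in the neural crest lineage as a whole, each Ribotag library pools Cre-positive diaphragms of a litter that were homogenized along with Cre-negative ones, and far less RNA went into it than into a whole muscle library. For the Ribotag comparisons, cell type and preparation cannot be told apart. In whole muscle, fewer cells of a type and less RNA per cell cannot be told apart.

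A laminin is a trimer of an alpha, a beta and a gamma chain, assembled in the cell and built into a sheet with type IV collagen, nidogens and heparan sulfate proteoglycans. An integrin is a dimer of an alpha and a beta chain that spans the membrane and links such a sheet, or fibronectin, to the actin skeleton. In muscle, the laminin alpha2 chain is the main one of the mature fiber surface, alpha4, alpha5 and beta2 mark the synaptic basal lamina, and alpha7 with beta1 is the main laminin receptor of the fiber. Schwann cells need laminin gamma1 and integrin beta1 to sort axons, and use alpha6 with beta1 and, once they myelinate, with beta4.

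Promoter sequences are shown for the most abundant laminin and integrin genes, Lamb1 and Itgb1, and for the members with the lowest adjusted p in a Ribotag comparison, Itga3 and Lama5. The sequences are those of RefSeq on GRCm38.p6, 300 bases each, from 250 bases before to 50 after the start that RefSeq gives the gene, which for Lamb1 and Itga3 is not the GENCODE start used for the positions further on. They are Lamb1 at chr12:31265043-31265342 (plus strand), Itgb1 at chr8:128685404-128685703 (plus strand), Itga3 at chr11:95076665-95076964 (minus strand) and Lama5 at chr2:180225810-180226109 (minus strand). Capitals mark the GC box, GGGCGG on either strand.
Lamb1: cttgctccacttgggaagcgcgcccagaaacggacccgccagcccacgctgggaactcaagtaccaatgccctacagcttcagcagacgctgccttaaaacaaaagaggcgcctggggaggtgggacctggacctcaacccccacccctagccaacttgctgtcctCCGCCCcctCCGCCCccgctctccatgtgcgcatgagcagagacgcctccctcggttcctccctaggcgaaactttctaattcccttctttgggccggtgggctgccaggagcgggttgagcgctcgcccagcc
Itgb1: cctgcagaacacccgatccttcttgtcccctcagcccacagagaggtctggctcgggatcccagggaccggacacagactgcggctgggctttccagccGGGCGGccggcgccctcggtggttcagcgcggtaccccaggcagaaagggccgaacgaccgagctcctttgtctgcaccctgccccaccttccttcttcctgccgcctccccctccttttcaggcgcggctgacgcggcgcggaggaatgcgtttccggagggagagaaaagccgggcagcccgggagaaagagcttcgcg
Itga3: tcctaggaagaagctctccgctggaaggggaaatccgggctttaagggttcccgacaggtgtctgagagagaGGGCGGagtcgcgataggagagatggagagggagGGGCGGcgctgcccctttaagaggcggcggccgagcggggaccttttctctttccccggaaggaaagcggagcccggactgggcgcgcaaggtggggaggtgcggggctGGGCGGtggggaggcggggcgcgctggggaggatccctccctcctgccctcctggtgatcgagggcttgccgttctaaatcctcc
Lama5: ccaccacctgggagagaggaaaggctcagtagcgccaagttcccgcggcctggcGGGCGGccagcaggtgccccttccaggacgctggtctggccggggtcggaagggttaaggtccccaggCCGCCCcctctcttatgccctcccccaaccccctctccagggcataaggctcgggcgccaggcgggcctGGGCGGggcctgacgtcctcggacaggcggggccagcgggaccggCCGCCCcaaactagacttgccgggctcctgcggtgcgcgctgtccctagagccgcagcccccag
Such a table entry was matched for 24 of the 38 members. A GC box stood in 11 of the 24 (45.8%), against 35.7% of all 32851 promoters in the table, and the median GC content was 58.8% against 52.7%. The letters TATAAA, searched on both strands, were in 0 of the 24 and in 13.6% of all promoters. The letters CCAAT, searched in the same way, were in 3 of the 24 (Itgax, Itgb8 and Lamb1) and in 37.4% of all. These are matches of letters, and they say nothing of binding.

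Values are RPKM, reads divided by gene length and by depth, so levels of different chains can be set side by side. The depth, read back from the floor value that stands in for no reads, was between 100178863 and 230216660 mapped reads, and only 2 of the 228 values of the members were at the floor (Itgax in Wnt1-Ribotag 2 and Itgb2l in 1 library). Erbb3, the inactivated gene, was at 16.5 and 15.8 RPKM in wild-type 5 and 6, 21.5 and 11.9 in mutant 1 and 2, and 19.5 and 25.3 in Wnt1-Ribotag 1 and 2. Its RNA level does not tell the genotypes apart, whereas Sox10, a Schwann lineage transcription factor, was at 2.89 and 2.16 in wild-type, 0.00854 and 0.0178 in mutant and 15.5 and 32.2 in Wnt1-Ribotag libraries. The summed RPKM of 22 Schwann lineage markers was between 54.3 and 76.0 in mutant, 99.6 and 103 in wild-type and 332 and 673 in Wnt1-Ribotag libraries. RNA of muscle and of neurons was also present in the tagged RNA. The sum of 21 skeletal muscle markers was 4912 and 4681 in Wnt1-Ribotag 1 and 2 against 5417 and 4528 in wild-type 5 and 6, and that of 12 neuronal markers was 189 and 834 against 23.3 and 103.

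**Figure D1:**
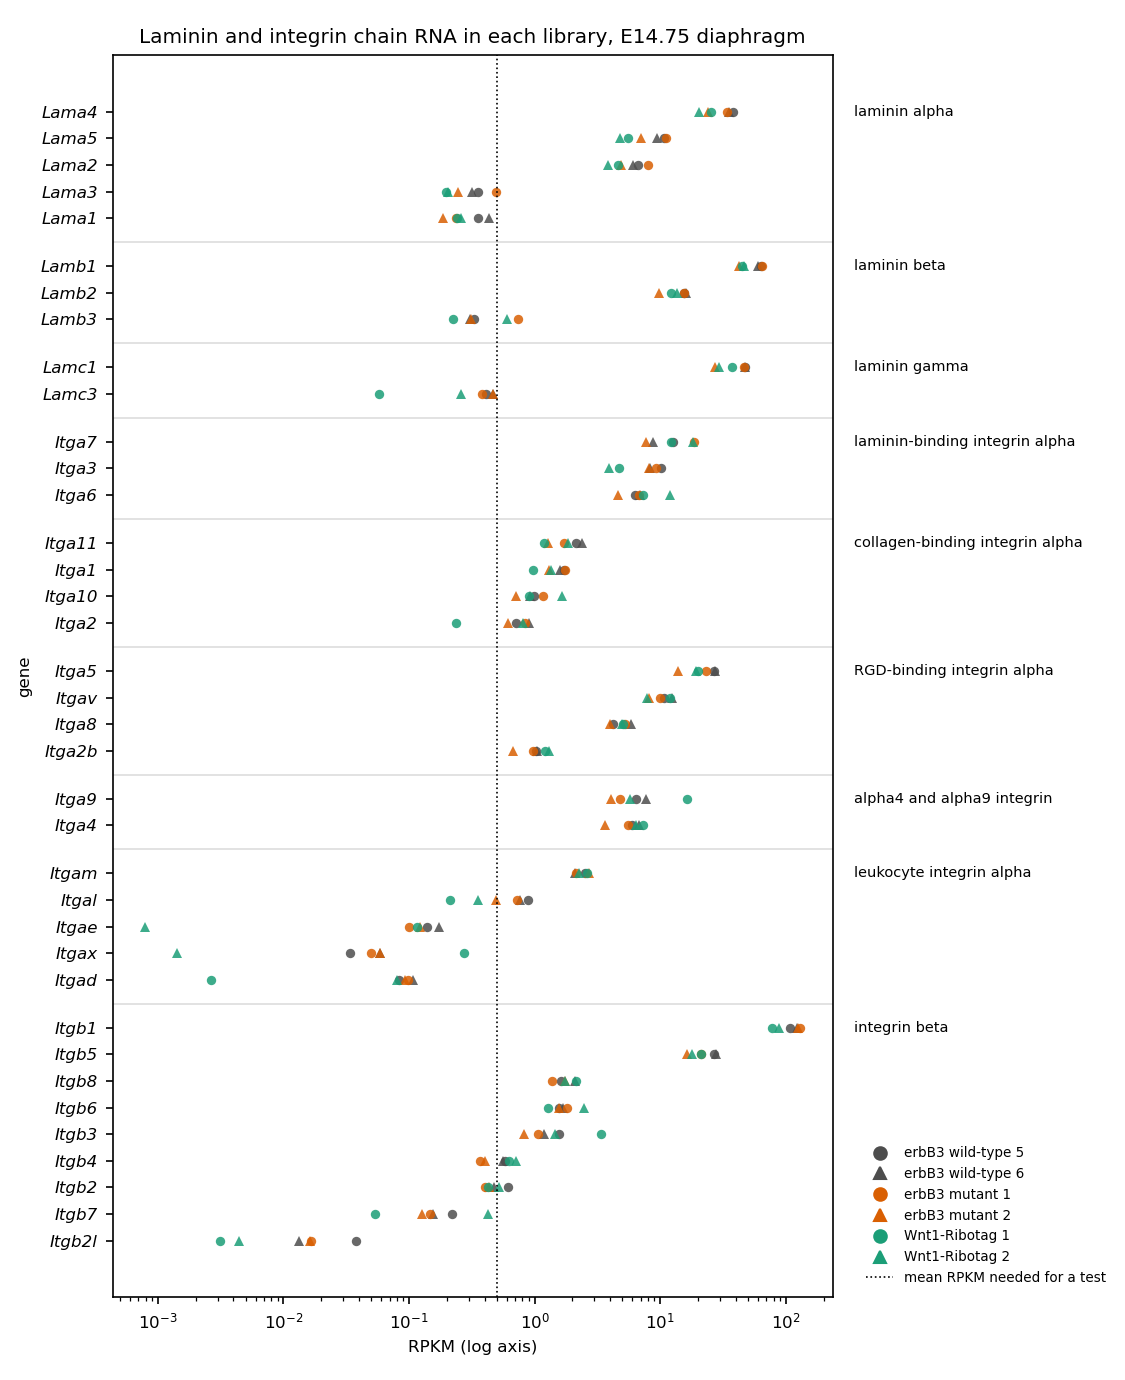
RPKM of the laminin and integrin chain genes (one line per gene, log axis), grouped by role, with grey for erbB3 wild-type, orange for erbB3 mutant and green for Wnt1-Ribotag libraries; the shape tells the 2 libraries of a group apart, and the dotted line is the mean of 0.5 RPKM needed for a test. Itgb1 lies farthest to the right, between 77.2 and 129 RPKM, and the 10 genes with a mean left of the line are Lama1, Lama3, Lamb3, Lamc3, Itgad, Itgae, Itgax, Itgb2, Itgb7 and Itgb2l.

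Among the laminin alpha chains, Lama4 (ENSMUSG00000019846, chromosome 10 of GRCm38, 38965515 to 39110188) was the most abundant in every library. Wild-type 5 and 6 were at 37.7 and 35.3 RPKM, mutant 1 and 2 at 34.3 and 23.8, and Wnt1-Ribotag 1 and 2 at 25.6 and 20.6. Both wild-type values were above the other 4. Lama5 (ENSMUSG00000015647, chromosome 2 of GRCm38, 180176373 to 180225859), the alpha chain of most adult basement membranes, was at 10.8 and 9.52 RPKM in wild-type 5 and 6, 11.2 and 6.99 in mutant 1 and 2, and 5.55 and 4.79 in Wnt1-Ribotag 1 and 2. Lama2 was at 6.67 and 6.10, 8.06 and 4.91, and 4.60 and 3.82 in the same order. In both genes the Ribotag values were the lowest of the 6 libraries. Lama1, of the early embryo and the nervous system, and Lama3, of epithelia, did not exceed 0.493 RPKM in any library.

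As shares of the summed RPKM of the 5 alpha chains, Lama4 took 67.9% ± 0.611 in wild-type, 64.5% ± 1.94 in mutant and 70.1% ± 0.958 in Wnt1-Ribotag libraries (SD, n = 2 in each). Lama5 took 18.9%, 20.0% and 15.7% and Lama2 11.9%, 14.2% and 12.8% in the same order. Lama4 was thus the main alpha chain in all 3 groups. With 2 libraries a group these shares were not tested.

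Lamb1 (ENSMUSG00000002900, chromosome 12 of GRCm38, 31265234 to 31329644) was the most abundant laminin gene of all. Wild-type 5 and 6 were at 64.0 and 60.7 RPKM, mutant 1 and 2 at 64.7 and 42.3, and Wnt1-Ribotag 1 and 2 at 44.8 and 46.8. Mutant 1 lay with the wild-type libraries and mutant 2 with the Ribotag libraries. Lamb2, the beta chain of the synapse, was at 15.5 and 16.0 RPKM in wild-type 5 and 6, 15.6 and 9.72 in mutant 1 and 2, and 12.2 and 13.6 in Wnt1-Ribotag 1 and 2. The ratio of Lamb2 to Lamb1 was between 0.230 and 0.290 in the 6 libraries, with the Ribotag libraries highest at 0.271 and 0.290. Lamb3, an epithelial chain, was at 0.743 RPKM or less.

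Lamc1 (ENSMUSG00000026478, chromosome 1 of GRCm38, 153218922 to 153332786), the gamma chain of nearly all laminins, was at 47.1 and 47.6 RPKM in wild-type 5 and 6, 46.3 and 27.6 in mutant 1 and 2, and 37.6 and 29.5 in Wnt1-Ribotag 1 and 2. Mutant 1 lay with the wild-type libraries, and the other 3 values were lower. Lamc3 was at 0.467 RPKM or less. Lama4, Lamb1 and Lamc1 were the 3 laminin genes with the highest mean RPKM.

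**Figure D2:**
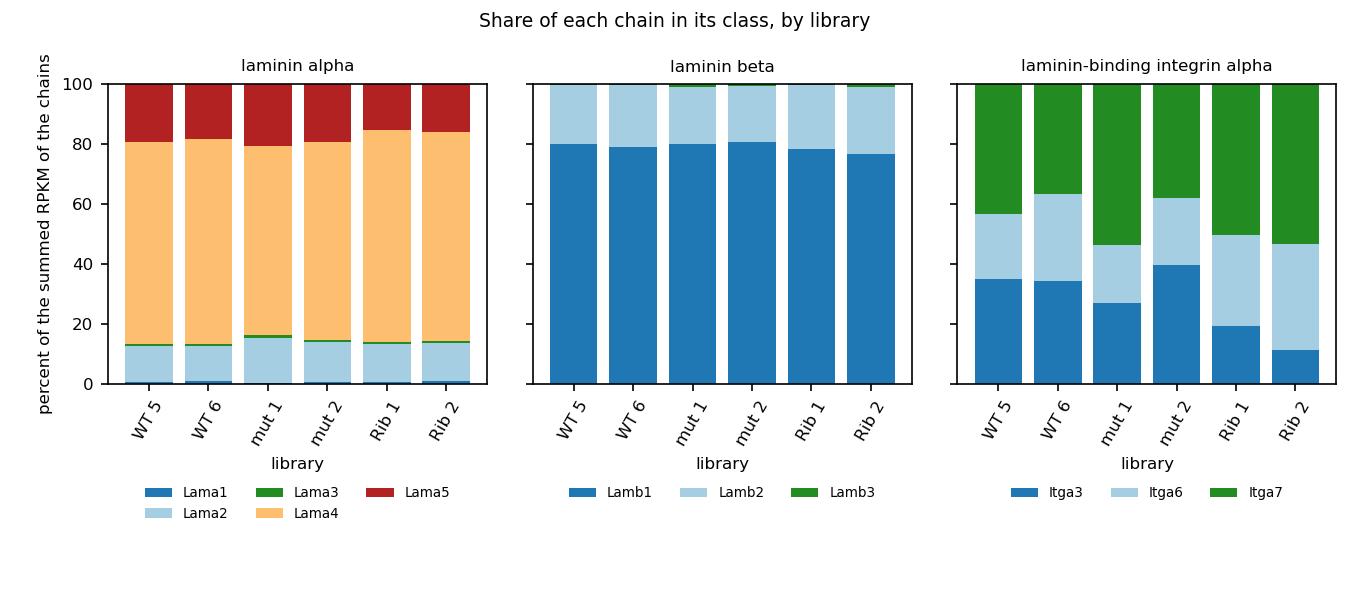
Stacked bars of the percent that each chain takes of the summed RPKM of its class in each library (WT, erbB3 wild-type; mut, erbB3 mutant; Rib, Wnt1-Ribotag), for laminin alpha and beta chains and for the integrin alpha chains that bind laminin. Lama4 and Lamb1 take most of their class in all 6 libraries, and Itga3 takes 19.5% and 11.5% in the Ribotag libraries against 26.8% to 39.6% in the others.

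Of the integrin alpha chains that bind laminin, Itga7 (ENSMUSG00000025348, chromosome 10 of GRCm38, 128933818 to 128958282), the chain of the muscle fiber, varied most between libraries of 1 group. It was at 12.6 and 8.82 RPKM in wild-type 5 and 6, 18.6 and 7.77 in mutant 1 and 2, and 12.3 and 18.2 in Wnt1-Ribotag 1 and 2. The groups overlapped throughout. Itga7 shares 9 bases of exon with Mettl7b on the other strand. Itga3 (ENSMUSG00000001507, chromosome 11 of GRCm38, 95044474 to 95076801), found in epithelia, mesothelium and elsewhere, was at 10.1 and 8.23 RPKM in wild-type 5 and 6, 9.32 and 8.10 in mutant 1 and 2, and 4.74 and 3.92 in Wnt1-Ribotag 1 and 2. Both Ribotag values were below all 4 whole muscle values. Itga6, the laminin receptor chain of Schwann cells and endothelium, was at 6.33 and 6.92, 6.78 and 4.60, and 7.34 and 12.1 RPKM in the same order, with the Ribotag values highest. Of the summed RPKM of these 3 chains, Itga3 took 35.0% and 34.3% in wild-type 5 and 6, 26.8% and 39.6% in mutant 1 and 2, and 19.5% and 11.5% in Wnt1-Ribotag 1 and 2. Itga6 took 21.8% and 28.9%, 19.5% and 22.5%, and 30.2% and 35.3% in the same order. The Ribotag libraries were lowest for Itga3 and highest for Itga6.

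Itga5 (ENSMUSG00000000555, chromosome 15 of GRCm38, 103344286 to 103366763), the fibronectin receptor chain and the most abundant integrin alpha chain, was at 26.6 and 27.5 RPKM in wild-type 5 and 6, 23.1 and 13.9 in mutant 1 and 2, and 20.1 and 19.3 in Wnt1-Ribotag 1 and 2. Both wild-type values were above the other 4. Itgav (ENSMUSG00000027087, chromosome 2 of GRCm38, 83724397 to 83806916), which with several beta chains binds vitronectin and other ligands with the RGD motif, was at 10.7 and 12.4 RPKM in wild-type 5 and 6, 10.0 and 8.09 in mutant 1 and 2, and 12.0 and 7.80 in Wnt1-Ribotag 1 and 2. Itga8, a chain for nephronectin and fibronectin, was between 4.01 and 5.83 RPKM in all libraries. Itga2b, the fibrinogen receptor chain of platelets, was between 0.669 and 1.30 RPKM. The 4 collagen-binding chains were low, with Itga11 between 1.18 and 2.38, Itga1 between 0.964 and 1.73, Itga10 between 0.712 and 1.65 and Itga2 between 0.237 and 0.895 RPKM. Itga10 shares 1739 of its 5186 exon bases with Gm42957, a protein-coding gene on the same strand that has no value in the data.

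Itga9 (ENSMUSG00000039115, chromosome 9 of GRCm38, 118606690 to 118901003), whose product with beta1 binds tenascin-C and VCAM1, had the widest difference between libraries of 1 group among the tested members. Wild-type 5 and 6 were at 6.38 and 7.75 RPKM, mutant 1 and 2 at 4.79 and 4.07, and Wnt1-Ribotag 1 and 2 at 16.5 and 5.80. The value of Wnt1-Ribotag 1 stood alone, and that of Wnt1-Ribotag 2 was below both wild-type values. Itga4, the related receptor chain for fibronectin and VCAM1, was at 5.96 and 6.82 RPKM in wild-type 5 and 6, 5.52 and 3.65 in mutant 1 and 2, and 7.37 and 6.40 in Wnt1-Ribotag 1 and 2. It shares 1124 bases of exon with Cerkl on the other strand, and the sources used here do not say whether reads were counted by strand.

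Of the alpha chains of leukocytes, Itgam, of macrophages and neutrophils, was the most abundant. It was between 2.10 and 2.74 RPKM in all libraries, and Itgal was at 0.880 and 0.769 in wild-type 5 and 6, 0.721 and 0.489 in mutant 1 and 2, and 0.214 and 0.351 in Wnt1-Ribotag 1 and 2. Itgam shares 3450 of its 5024 exon bases with Gm49368, a protein-coding gene on the same strand that has no value in the data. Itgad, Itgae and Itgax were at 0.272 RPKM or less. Itgb2, the partner of Itgal, Itgam, Itgax and Itgad, was between 0.402 and 0.612 RPKM. The sum of 17 markers of macrophages and other leukocytes was 253 and 220 in wild-type, 196 and 246 in mutant and 157 and 142 in Wnt1-Ribotag libraries, and all 17 were above the floor everywhere.

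Itgb1 (ENSMUSG00000025809, chromosome 8 of GRCm38, 128685654 to 128733200), the beta chain shared by most integrins, was the most abundant member. Wild-type 5 and 6 were at 109 and 123 RPKM, mutant 1 and 2 at 129 and 124, and Wnt1-Ribotag 1 and 2 at 77.2 and 88.7. The Ribotag values were below all 4 whole muscle values. It held between 72.5% and 85.3% of the integrin beta sum. Itgb5 (ENSMUSG00000022817, chromosome 16 of GRCm38, 33829665 to 33949338), a partner of Itgav, was at 26.6 and 27.7 RPKM in wild-type 5 and 6, 21.3 and 16.4 in mutant 1 and 2, and 21.3 and 18.1 in Wnt1-Ribotag 1 and 2, with both wild-type values on top. Itgb8 (ENSMUSG00000025321, chromosome 12 of GRCm38, 119158022 to 119238802), another partner of Itgav, was between 1.36 and 2.14 RPKM in all libraries.

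The remaining beta chains were low. Itgb3, of platelets, endothelium and other cells, was at 1.57 and 1.19 RPKM in wild-type 5 and 6, 1.07 and 0.822 in mutant 1 and 2, and 3.41 and 1.46 in Wnt1-Ribotag 1 and 2. Wnt1-Ribotag 1 again stood alone. Itgb4, the partner of alpha6 in epithelia and mature Schwann cells, was at 0.582 and 0.560, 0.367 and 0.405, and 0.625 and 0.705 RPKM in the same order. The groups did not overlap, but all 6 values were low. Itgb6, Itgb7 and Itgb2l were between 1.29 and 2.49, 0.0534 and 0.423, and 0.00310 and 0.0376 RPKM.

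Before the groups were compared, the libraries of each group were set against each other. Differences here are on the scale of log2(RPKM + 0.5), on which a difference of 1 is about 2-fold for genes well above 0.5 RPKM. Mutant 1 was above mutant 2 in 24 of the 27 members tested against wild-type, while it was above it in 60.4% of all 14052 genes tested. The median absolute difference between the mutant libraries was 0.32 in these members and 0.19 in all genes, and between the wild-type libraries it was 0.13 in both. Mutant 2 was the lowest of the 4 whole muscle libraries in 23 of the 27 members and in 48.5% of all genes. The muscle marker sum also differed between the mutants, at 8774 in mutant 1 and 6204 in mutant 2, and the sum of 14 markers of connective tissue fibroblasts was 3214 and 2345. Endothelial markers ran the same way, at 102 and 74.8, whereas those of leukocytes, at 196 and 246, of pericytes and smooth muscle, at 386 and 423, and of neurons, at 16.2 and 21.2, were higher in mutant 2. Their part in the difference between the libraries was not tested. Between the Ribotag libraries, the members differed by a median of 0.24, which was less than the 0.39 of all genes.

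**Figure D3:**
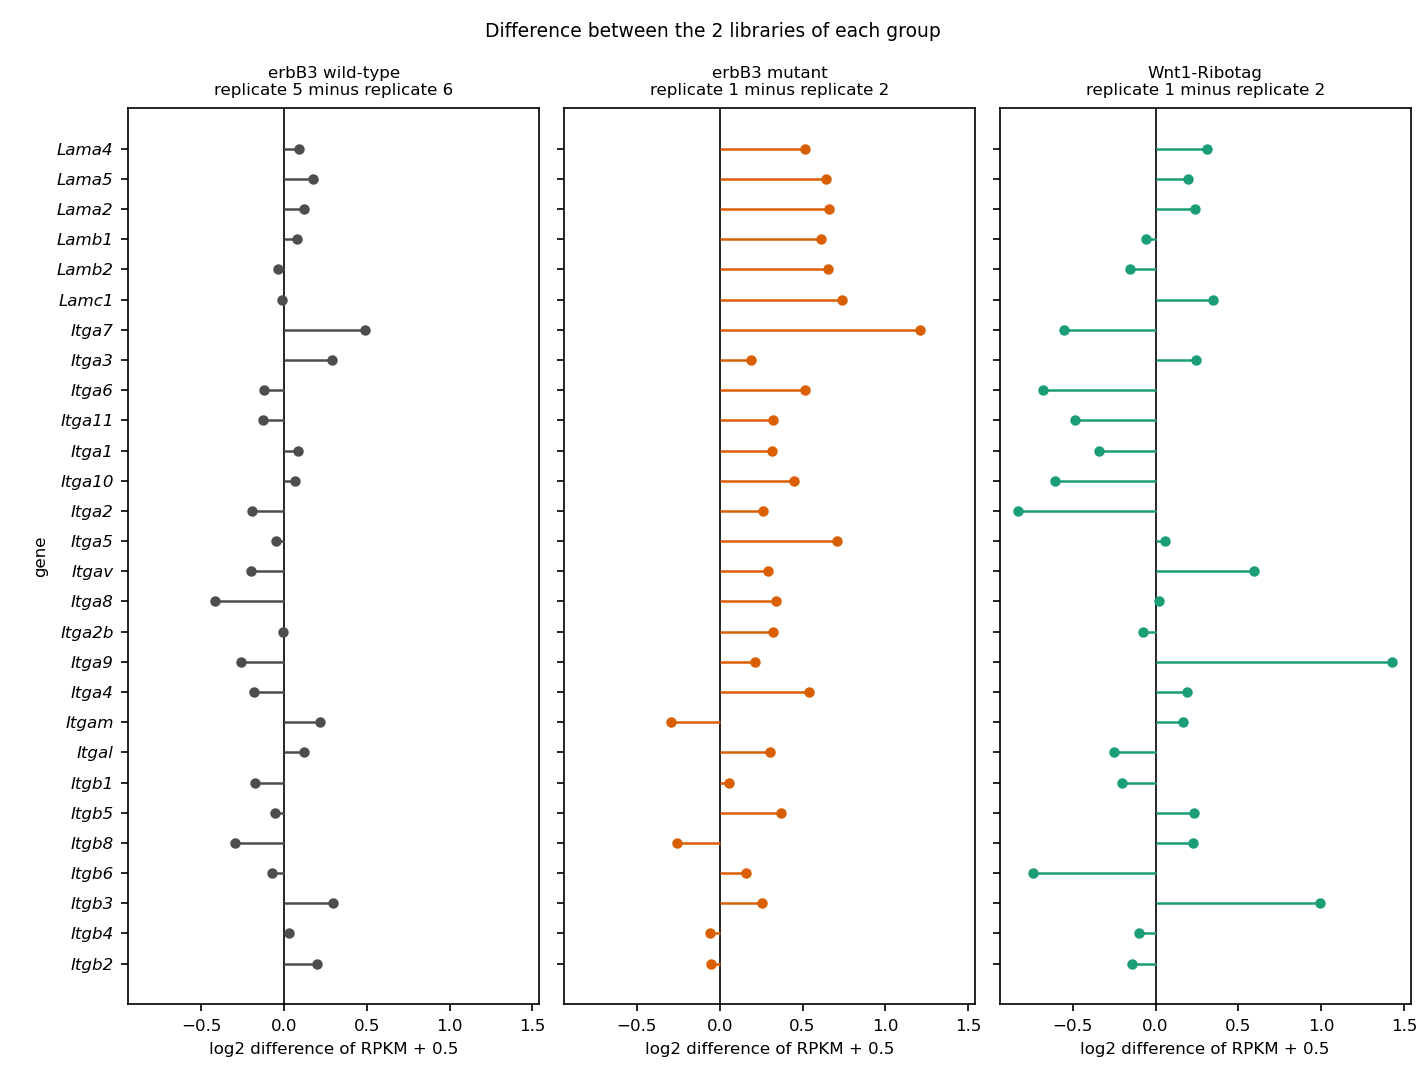
Difference of log2(RPKM + 0.5) between the 2 libraries of each group, the lower number minus the higher, for members tested in at least 1 comparison. The orange points of the mutant lie to the right of 0 for most members, whereas the wild-type points lie close to 0 on both sides, and Itga9 and Itgb3 lie far to the right in the Wnt1-Ribotag panel.

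The comparison of mutant with wild-type muscle asked which RNAs change when Schwann cells are missing. No laminin or integrin gene passed the test. Of the 38 members, 27 had a mean of at least 0.5 RPKM and were tested with limma, and 0 had a Benjamini-Hochberg adjusted p under 0.05, while 24 of all 14052 genes tested did (0.171%). At an unadjusted p under 0.05 there were 5 members, Itga9, Itgb5, Itga11 and Itga5 among them, against 12.0% of all genes. At least 2-fold apart in each of the 4 pairings of a mutant with a wild-type library were 0 members and 63 genes (0.448%).

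Most fitted differences were small and below 0. Of the 27 members, 23 had a log2 fold change below 0 and 4 above, and the median was -0.23 beside -0.10 for all genes tested. It was -0.14 after median-ratio scaling and -0.08 after quantile normalization, beside -0.0079 and 0.0044 for all genes. Without a minimum level, the median over all 38 was -0.18. The median rests on mutant 2: without mutant 2 the median of the tested members was -0.05, and without mutant 1 it was -0.42. Mutant 2 was also lower over all genes averaging at least 0.5 RPKM. Its median log2 ratio to the mean of the 6 libraries was -0.103, beside -0.001 for mutant 1. Both mutant values were below both wild-type values in 12 of the 27 members, or 44.4%, and in 37.4% of all genes, so the share in the members was near that of all genes. Without mutant 1 the number was 24, or 88.9%, beside 57.6% of all genes, and without mutant 2 it was 13, or 48.1%, beside 47.1%. Both mutant values were above both wild-type values in 1 member, Itgb1, and in 12.7% of all genes. That number was 2 (7.41%) without mutant 1 or wild-type 5, beside 25.0% and 19.2% of all genes, and 8 (29.6%) without mutant 2, beside 23.9%.

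Markers of several cell types also lay apart between the genotypes. Both mutant values were below both wild-type values in 16 of 19 Schwann, 6 of 9 neuronal and 12 of 12 liver markers, beside 37.4% of all genes. Median log2 fold changes of these lists were -0.69, -1.56 and -2.72. Both mutant values were above in 10 of 21 muscle markers, beside 12.7% of all genes, and below in 0, with a median of 0.28. Of 14 fibroblast markers 4 were higher and 1 lower in this sense, and of 15 endothelial markers 2 were higher and 3 lower. The part of these cells in the member values was not tested.

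Itga9, singled out after its values were seen as the member with the lowest p, had a log2 fold change of -0.62 (SE 0.16, 95% interval -0.99 to -0.24, adjusted p = 0.259 in limma). Its 4 pairs of libraries lay between -0.85 and -0.38. Itga5 had -0.58 (SE 0.22, adjusted p = 0.391) and Itgb5 -0.53 (SE 0.16, adjusted p = 0.309). The 3 laminin genes with the highest levels had -0.35 for Lama4 (SE 0.18), -0.40 for Lamc1 (SE 0.22) and -0.25 for Lamb1 (SE 0.20), with adjusted p in limma of 0.451, 0.467 and 0.570. These values moved with the mutant library left out. Without mutant 1 and without mutant 2, Lama4 had -0.60 and -0.09, Lamc1 -0.77 and -0.03, and Lamb1 -0.55 and 0.05. In the same order Itga5 had -0.93 and -0.22, and Itgb5 -0.71 and -0.34. Itgb1 had 0.14 (95% interval -0.19 to 0.46, adjusted p = 0.655). For Itga7 the interval ran from -0.63 to 1.01, so a change of about 2-fold upward could not be told from none.

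The comparison of tagged-ribosome RNA with wild-type muscle asked which RNAs are richer in the Wnt1-Cre lineage than in the tissue around it. It shares the wild-type libraries with the comparison above. No member passed here either, in 0 of 29 tested, but limma called only 1 of all 14418 genes (0.00694%), while 14 of 22 Schwann lineage markers were at least 2-fold higher in all pairs. At an unadjusted p under 0.05 there were 10 members, among them Lama5, Itga3, Lama4, Lamb1, Itga5, Lama2, Itgb1, Lamc1 and Itgb5, against 19.5% of all genes, and all 10 were lower in Ribotag RNA. At least 2-fold apart in all 4 pairs were 0 members and 337 genes (2.34%). Without wild-type 6, or without Wnt1-Ribotag 2, it was 1 member, beside 4.04% and 9.34% of all genes.

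All 7 laminin genes tested had both Ribotag values below both wild-type values, beside 31.0% of all genes, and 0 of the 7 passed. Of the 4 that were too low to test, Lamb3 was at 0.225 and 0.605 RPKM in Wnt1-Ribotag 1 and 2 and 0.329 and 0.305 in wild-type 5 and 6, so its groups overlapped. With integrins the number was 14 of 29 members, or 48.3%, beside 31.0% of all genes, the integrin genes being Itga1, Itga3, Itga5, Itga11, Itgal, Itgb1 and Itgb5. Both Ribotag values were above both wild-type values in 3 members (Itga6, Itga2b and Itgb4), beside 23.3% of all genes, and in 6 to 8 members when any 1 of the 4 libraries was left out, beside 26.7% to 46.0% of all genes. The median log2 fold change of the 29 members was -0.28, beside -0.05 for all genes tested, and over all 38 it was -0.24.

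The lowest adjusted p belonged to Itga3 and Lama5, which were singled out after their values were seen. Itga3 had a log2 fold change of -1.0 (SE 0.21, 95% interval -1.54 to -0.47, adjusted p = 0.170 in limma), and Lama5 had -0.91 (SE 0.19, 95% interval -1.39 to -0.43, adjusted p = 0.170). Both were lower in 4 of 4 pairs. Of the most abundant laminins, Lama4 had -0.66 (SE 0.18, adjusted p = 0.194), Lamc1 -0.50 (SE 0.19, adjusted p = 0.245) and Lamb1 -0.44 (SE 0.15, adjusted p = 0.231). Itgb1 had -0.48 (SE 0.17, adjusted p = 0.239), Itga5 -0.45 and Itgb5 -0.46. Itga6 and Itga7 had 0.48 and 0.49 with adjusted p of 0.390 and 0.395 in limma, and Itga7 ran from 0.21 to 0.76 as libraries were left out. For Itga9 the 4 pairs ran from -0.39 to 1.30.

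When 1 Ribotag library was left out, the other was assumed to vary as the wild-type libraries do, which were close to each other, and calls rose throughout. Without Wnt1-Ribotag 1 there were 12 members called (41.4%) and 4482 genes (31.0%), and without Wnt1-Ribotag 2 there were 12 members and 5965 genes (41.8%). Member calls did not rise when wild-type 5 or 6 was left out. With all libraries of the comparison, limma called 0.00694% of all genes. Among the 12, Lama4, Lama5, Lamb1, Itga3 and Itga5 were called, all lower, whichever of the Ribotag libraries was left out. Markers of other cells went both ways in Ribotag RNA. Of the 17 markers of macrophages and other leukocytes, 15 had both Ribotag values below both wild-type values, as had 7 of 9 markers of mesothelium, with a sum of 107 and 87.1 against 187 and 176, and 9 of 14 of fibroblasts, with a sum of 2159 and 2248 against 3002 and 2975. Both Ribotag values were also lower in 7 of 15 endothelial, 5 of 9 pericyte and smooth muscle, 3 of 9 erythroid and 1 of 12 liver markers, beside 31.0% of all genes. They were higher in 1, 2, 1 and 0 of these, beside 23.3% of all genes. Muscle markers were split, with 5 of 21 higher and 4 lower in this sense, and epithelial markers had 3 of 6 higher and 1 lower. Neuronal markers were higher in 10 of 11, with a median log2 fold change of 2.89. The part of these cells in the lower laminin and Itga3 values was not tested.

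**Figure D4:**
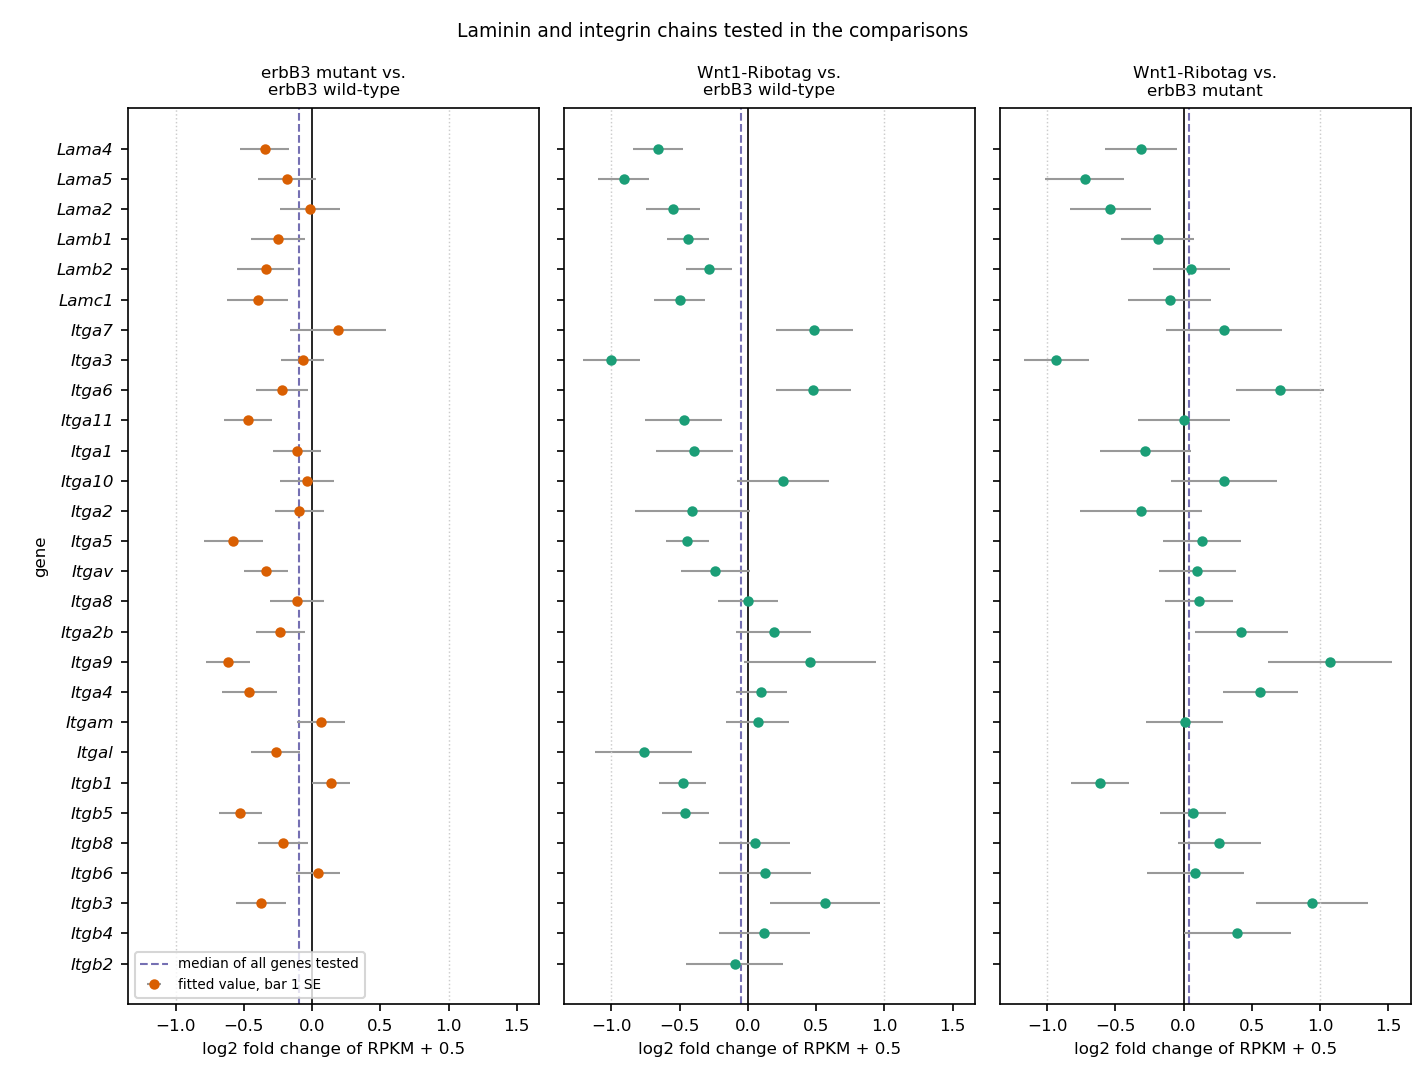
Log2 fold change of RPKM + 0.5 from limma for tested members, with a bar of 1 SE to each side, in the 3 comparisons; the dashed line is the median of all genes tested and the dotted lines mark a value of 1 in either direction. The laminin genes at the top lie left of the dashed line in Ribotag vs. wild-type RNA, while the laminin-binding chains Itga3 and Itga6 lie on opposite sides of 0 in both Ribotag comparisons.

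Set against mutant muscle, Ribotag RNA differed from whole muscle in both preparation and erbB3 genotype. This comparison shares its libraries with the other 2. Of 27 members tested, 0 had an adjusted p under 0.05 in limma, beside 171 of 14325 genes (1.19%), and 3 had an unadjusted p under 0.05 (Itga3, Itgb1 and Lama5), beside 19.3% of all genes. At least 2-fold apart in all 4 pairs were 0 members and 566 genes (3.95%), and without Wnt1-Ribotag 2 there were 2 members, beside 11.7% of all genes. The median log2 fold change of the 27 members was 0.07, beside 0.04 for all genes, and its sign changed without mutant 2, to -0.19, and after quantile normalization, to -0.05.

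Integrin chains lay on both sides. Both Ribotag values were above both mutant values in 7 members (Itga6, Itga2b, Itga4, Itga9, Itgb3, Itgb4 and Itgb8), or 25.9%, beside 29.7% of all genes. They were below both in 5 members, Lama2, Lama5, Itga3 and Itgb1 among them, or 18.5%, beside 24.4% of all genes. Both shares were below those of all genes with the 4 libraries, but not without 1 of the mutants. Without mutant 1 the number higher was 15, or 55.6%, beside 42.5% of all genes, and without mutant 2 the number lower was 15, or 55.6%, beside 34.1%. Without Wnt1-Ribotag 2 the number lower was 9, or 33.3%, beside 45.6%.

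Itga3 again had the lowest adjusted p, with a log2 fold change of -0.93 (SE 0.24, 95% interval -1.51 to -0.36, adjusted p = 0.132 in limma). With the wild-type libraries added to the fit to estimate the spread, its adjusted p was 0.0482 at the same log2 fold change, and Itga3 was then the 1 member called (3.70%), beside 692 of all genes (4.83%). It was also called without Wnt1-Ribotag 1 and without Wnt1-Ribotag 2 (adjusted p = 0.0176 and 0.0353 in limma), but not without mutant 1 or mutant 2 (log2 fold changes of -0.84 and -1.03, adjusted p = 0.596 and 0.728), where the values were about as large. In fits with 1 Ribotag library, that library was assumed to vary as the mutant libraries do, and calls rose over all genes. Without Wnt1-Ribotag 1 there were 2 members called (7.14%) beside 17.8% of all genes, and without Wnt1-Ribotag 2 there were 4 (15.4%) beside 26.0%. Itgb1 had -0.61 (SE 0.21, adjusted p = 0.206) and Lama5 -0.73 (SE 0.29, adjusted p = 0.244). Itga9 had 1.07 (SE 0.46, 95% interval -0.02 to 2.16, adjusted p = 0.266), and the value rested mainly on Wnt1-Ribotag 1. Without Wnt1-Ribotag 2 it was 1.79 (adjusted p = 0.00145 in limma), and without Wnt1-Ribotag 1 it was 0.36 (adjusted p = 0.341). Itga6 had 0.70 (SE 0.32, adjusted p = 0.292), which was 1.04 without Wnt1-Ribotag 1 (adjusted p = 0.0346) and 0.36 without Wnt1-Ribotag 2 (adjusted p = 0.355 in limma). Of the mesothelium markers, 7 of 9 had both Ribotag values below both mutant values, as did Itga3. So had 13 of 17 leukocyte, 8 of 14 fibroblast and 11 of 21 muscle markers, beside 24.4% of all genes. Of the Schwann markers, 15 of 22 were called higher, as were 5 of 11 neuronal and 9 of 11 liver markers. The part of these cells in the values of Itga3 and Itga6 was not tested.

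The other genes of the adhesion pathway, taken from hand lists, gave few calls. Of 22 other basement membrane components, 19 were tested in mutant vs. wild-type muscle, all 19 had a log2 fold change below 0, with a median of -0.28 beside -0.10 for all genes, and 0 passed. Col4a1, a collagen IV chain, was at 88.9 and 79.1 RPKM in wild-type 5 and 6 and at 94.5 and 39.0 in mutant 1 and 2, so that mutant 2 alone was low. In Ribotag vs. wild-type RNA, 0 of 20 passed, with a median of -0.37. Nid2, a nidogen that bridges laminin and collagen IV, was at 91.9 and 78.8 RPKM in wild-type 5 and 6 and 35.6 and 34.3 in Wnt1-Ribotag 1 and 2, and Col4a5, another collagen IV chain, was at 12.1 and 12.9 against 4.37 and 3.53. These were the 2 list members at least 2-fold lower in all 4 pairs, beside 2.34% of all genes that far apart in either direction. The median of the list against mutant muscle was -0.02, with 0 of 20 passing. Nid1, the other nidogen, was at 48.7 and 54.4 RPKM in wild-type and 84.5 and 49.7 in Ribotag libraries. Of 12 laminin receptors other than integrins, and their partners, 0 passed in any of the 3 comparisons, with medians of -0.12, -0.08 and -0.10 in the order used above. Dag1, which encodes dystroglycan, was at 46.7 and 42.2 RPKM in wild-type 5 and 6, 47.1 and 24.1 in mutant 1 and 2, and 37.3 and 23.5 in Wnt1-Ribotag 1 and 2.

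Of 22 integrin ligands other than laminin, 20 were tested. In mutant vs. wild-type muscle 0 passed, and 4 (Vtn, Fga, Fgb and Fgg, which encode vitronectin and the fibrinogen chains) were lower by at least 2-fold in every pair. Of all genes, 0.448% were that far apart in either direction. Against mutant muscle, 2 passed in Ribotag RNA, beside 1.19% of all genes, Fga with a log2 fold change of 3.45 and Fgb with 2.67 (adjusted p = 0.0140 and 0.0374 in limma). The 4 genes are transcribed in liver, and the sum of 12 liver markers was 550 and 170 in wild-type 5 and 6, at most 23.2 in the mutant, and 310 and 215 in Wnt1-Ribotag 1 and 2. All 12 liver markers were lower in the mutant by at least 2-fold in every pair. Their part in the ligand values was not tested. Fn1, the ligand of Itga5, was at 185 and 188 RPKM in wild-type 5 and 6, 146 and 113 in mutant 1 and 2, and 111 and 85.1 in Wnt1-Ribotag 1 and 2. As with Itga5, both wild-type values were on top, and its log2 fold change was -0.54 in the mutant (adjusted p = 0.321 in limma) and -0.94 in Ribotag RNA (adjusted p = 0.170).

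Of 40 adaptors and kinases at integrin tails, 39 were tested, and 1 passed in 1 comparison, Ribotag vs. mutant RNA, beside 1.19% of all genes. Lims2, a LIM domain adaptor that binds integrin-linked kinase, was at 0.928 and 0.718 RPKM in wild-type 5 and 6, 0.292 and 0.325 in mutant 1 and 2, and 8.22 and 10.6 in Wnt1-Ribotag 1 and 2. The 3 groups of Lims2 values lay apart in the order of the Schwann marker sums, which is also the order of the neuronal marker sums. The part of these cells in the Lims2 values was not tested. The log2 fold change of Lims2 was 3.60 in Ribotag vs. mutant (SE 0.28, adjusted p = 0.00934 in limma), 2.90 in Ribotag vs. wild-type (SE 0.24, adjusted p = 0.106) and -0.71 in mutant vs. wild-type RNA (SE 0.17, adjusted p = 0.211). Its partner Ilk was at 83.4 and 80.6 RPKM in wild-type, 88.5 and 76.1 in mutant and 57.0 and 67.9 in Ribotag libraries. Tln1, which encodes the talin that activates integrins, was at 33.9 and 33.5, 28.9 and 23.3, and 20.2 and 15.3 RPKM in the same order. Both Ilk and Tln1 were lowest in the Ribotag libraries, as were Itgb1 and Itga3.

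The 4 lists were also counted by groups that do not overlap. Both mutant values were below both wild-type values in 5 of 19 basement membrane components, 4 of 12 other receptors, 14 of 20 ligands and 21 of 39 adaptors, beside 37.4% of all genes. They were above in 0, 0, 2 and 6, beside 12.7%. Both Ribotag values were below both wild-type values in 12 of 20, 5 of 12, 12 of 20 and 18 of 39 in the same order, beside 31.0%, and above in 2, 3, 0 and 6, beside 23.3%. Against mutant muscle they were below in 4, 4, 8 and 11, beside 24.4%, and above in 2, 4, 5 and 8, beside 29.7%.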

How the data were processed

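RNA-Seq of 6 diaphragm libraries was used, with groups and numbers from the labels. The authors deposited RPKM per gene, with a mark for genes at a floor value. The submitters' processing notes name STAR and mm9, and neither the version nor the counting program is given in the sources used here. Of 23076 entries, 3 hold no value. Symbols and positions came from GENCODE M21 (GRCm38), joined by Ensembl identifier, of which 21583 matched and 1490 did not. Depth was read from the floors of 223 microRNA genes, 81.2% of which agreed within 1e-4. Counts were not used here, so counting error is unknown.

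A gene was tested if its RPKM averaged 0.5 or more over the 4 samples compared. The test was run on log2(RPKM + 0.5) with limma 3.58.1 (trend) in R 4.3.3, Benjamini-Hochberg adjusted over all genes tested, with a threshold of 0.05 and no block. A fold change on this scale understates that of genes near 0.5 RPKM, and the 2-fold counts use this scale too. Itgal was at 0.880 and 0.769 RPKM in wild-type 5 and 6 and at 0.214 and 0.351 in Wnt1-Ribotag 1 and 2. Its 4 pairs ran from -0.95 to -0.58 on this scale, so it was not counted, though its RPKM differed by more than 2-fold in each pair. With 2 samples against 2, an exact permutation test could not go below 0.33 and was not used. Comparisons share samples. Members and lists were chosen with earlier results of these data known. The genes named in full are the 3 highest of the laminin, integrin alpha and integrin beta genes, those past a threshold, and those said to be singled out. Other genes of the lists were named for their role or their values. Values of 1 member are not reported here, though it is counted. The fit was tested on simulated data. Tables used Python 3.11.15, numpy 2.4.6, pandas 2.3.3 and matplotlib 3.10.9.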

Additional observations from a re-analysis of the deposited data

How the results depend on the processing

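The fits were repeated with a pseudocount of 0.1 or 1, without a filter, with a filter at 1 RPKM, after median-ratio scaling, after quantile normalization, without a trend, with all 6 samples, with a replicate block, at folds of 1.5 and 3, and without each library in turn. Non-overlap counts under scaling and leave-out were added after seeing the data. With 2 libraries a group, 1 library can decide a call, and levels near the floor are imprecise.

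Over the 3 comparisons, 0 members were called in 24 of 25 refits that keep all libraries, the exception being 1 in Ribotag vs. mutant RNA with all 6 samples. Of the values of named genes in these refits, 272 kept their direction and side of the threshold, 3 changed sign and 1 (Itga3) passed the threshold. Leaving out a library gave 0 to 12 in Ribotag vs. wild-type and 0 to 4 in Ribotag vs. mutant RNA, where at most 26.0% of all genes were called. At 1.5-fold in all pairs there were 3 members (10.3%, beside 8.50% of all genes) in Ribotag vs. wild-type and 1 (3.70%, beside 10.1%) in Ribotag vs. mutant RNA. Leave-out gave 0 to 1 and 0 to 2 at 2-fold, and the shares of all genes beside these are given with each comparison above. Under median-ratio scaling, non-overlapping members were 2 higher in the mutant (22.4% of genes) and 5 higher in Ribotag than wild-type RNA (27.8%). Leave-out moved non-overlap counts in mutant vs. wild-type to 1 to 8 higher (all genes, 19.2% to 26.2%) and 13 to 24 lower (45.6% to 57.6%), in Ribotag vs. wild-type to 6 to 8 higher (26.7% to 46.0%), and in Ribotag vs. mutant to 8 to 15 higher (33.0% to 50.1%) and 6 to 15 lower (30.0% to 45.6%). The member median in Ribotag vs. mutant RNA ran from -0.19 to 0.25. The cause was not tested.

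Signs turned with quantile normalization for Itgb8 in Ribotag vs. wild-type (-0.00) and for Itgav (-0.01) and Itgb5 (-0.03) in Ribotag vs. mutant RNA. When a library was left out, ranges that cross 0 were, in mutant vs. wild-type, -0.55 to 0.05 for Lamb1 and -0.42 to 0.79 for Itga7; in Ribotag vs. wild-type, -0.53 to 0.06 for Itgav and -0.10 to 0.20 for Itgb8; and in Ribotag vs. mutant, -0.50 to 0.11 for Lamb1, -0.47 to 0.27 for Lamc1, -0.22 to 0.49 for Itga5, -0.31 to 0.90 for Itga7, -0.20 to 0.40 for Itgav and -0.12 to 0.25 for Itgb5.

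Calls over all genes were 24, and 0 with no filter or all 6 samples and 10 to 106 on leave-out, in mutant vs. wild-type. They were 1, and 0 with no filter, 2 under scaling, 138 with all 6 samples and up to 5965 on leave-out, in Ribotag vs. wild-type. They were 171, and 112 with no filter, 83 with quantiles, 692 with all 6 samples and 112 to 3672 on leave-out, in Ribotag vs. mutant RNA. Ribotag and mutant libraries share numbers. Deviations of same-numbered libraries correlated at 0.168 over 14325 genes, with 2 pairs only, so they were not taken as pairs. With the replicate block, 0 members and 842 genes were called.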
